A study of Mus musculus with 5 samples.

Results

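A set of 10 genes that handle quinones, aldehydes and other reactive carbonyl compounds were followed through 5 libraries of C2C12 cells. They were chosen by symbol as reductases, conjugation and export genes relevant to a naphthoquinone: Nqo1, Nqo2, Cbr1, Cbr3, Aldh3a1, Akr1b8, Ugdh, Ephx1, Abcc1 and Osgin1. All 10 were found among the 23361 genes of the table, each above 0 in every library, and all 10 were among the 11128 genes whose mean over the libraries reached 1 FPKM, a unit of fragments per kilobase of gene after scaling to library size. Those 11128 are called measured genes here. C2C12 is an immortalised mouse myoblast line, grown here in high-glucose medium with serum and still proliferating. The series asked how blocking PKM2, the M2 splice form of pyruvate kinase, by a hairpin or by compounds affects muscle progenitors. One library (shPKM2) came from cells given a short hairpin RNA against PKM2 for 72 h, and another (shControl) from cells given a control hairpin for the same time. The other 3 came from cells given Vehicle Control, Shikonin or TEPP-46 for 8 h. Shikonin, a naphthoquinone from plants, has been used to inhibit PKM2, whereas TEPP-46 is known to activate it. The doses, the hairpin sequences and the way the hairpins were delivered are not in the labels.

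Quinones are harmful to cells because they cycle between reduced and oxidised forms, which makes superoxide, and because they bind thiols of proteins and glutathione. Quinone reductases such as NQO1 transfer a pair of electrons at once, which avoids the radical intermediate, and the resulting hydroquinone can then be joined to glucuronic acid, sulfate or glutathione and pumped out of the cell. Carbonyl reductases, aldo-keto reductases and aldehyde dehydrogenases remove the aldehydes and ketones that lipid oxidation leaves behind. Several of these genes are known targets of NRF2, the factor that is released from KEAP1 when thiols of KEAP1 are modified, and Nqo1 and Aldh3a1 are also classical targets of the aryl hydrocarbon receptor (AhR).

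With a single library per condition, none of the differences can be checked against replicates, and no p-value was computed. The standard errors (SE) and intervals beside the values cover counting of reads alone, and variation between cultures is not included. Depth, estimated from the steps between the lowest values, lay between 22.4 and 30.9 in units of 1000000 reads, and the estimated reads of a member in a library ran from 399 for Osgin1 in shControl to 11137 for Ugdh with vehicle. Pkm, the gene of the targeted enzyme, stood at 1041 FPKM in shPKM2 and at 2061 FPKM in shControl, 0.505 times the control level. All 6 myoblast markers examined had a mean of at least 1 FPKM and summed to between 260 and 518 FPKM, lowest with shikonin. Markers of blood, endothelial, epithelial, liver and fat cells summed to at most 0.674 FPKM per cell type in any library. Since these are bulk samples, fewer cells of a kind and less RNA per cell cannot be told apart.

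Promoter sequences are shown for 4 members at the extremes of the set. Osgin1 had the largest difference of the set, Cbr3 and Cbr1 are neighbouring relatives with unequal responses, and Ugdh holds the antioxidant response element core yet varied least across the libraries. The RefSeq table (GRCm38.p6) held promoters of 8 of the 10 genes, 9 promoters in all, each with 250 bases before and 50 bases after a transcription start. The search covered 4 motifs on both strands: the antioxidant response element core TGACNNNGC, to which NRF2 binds with small MAF proteins, the AP-1 site TGANTCA, the heat shock element unit GAANNTTC and the AhR core TNGCGTG. The first 2 can overlap, since TGACTCA followed by GC holds both. The first motif was held by 12.4% of all 32851 promoters of the same length, the second by 7.81%, the third by 7.86% and the fourth by 5.07%. Among the 9 member promoters, Ugdh held the first motif at 2 places (TGACTTAGC at position -132 from the start and GCGTGGTCA, its reverse strand form, at -94). Osgin1 held the AP-1 letters at -97, the second of the Nqo2 promoters held them at 6, Cbr3 held the heat shock unit at -225, and no member promoter held the AhR letters. A match of letters is a description of the sequence only, and a window of this size leaves out more distant elements. The windows of Osgin1, Cbr1 and Ephx1 lie inside the gene spans given below rather than at their outer ends. The Osgin1 span starts at 119434124 and that of Cbr1 at 93605853, and the sequence before those ends was not searched. The sequences run 5′ to 3′ on the strand of the gene, with the matched motif in capitals, for Osgin1 (chr8:119436897-119437196, plus strand), Cbr3 (chr16:93682969-93683268, plus strand), Cbr1 (chr16:93607587-93607886, plus strand) and Ugdh (chr5:65435793-65436092, minus strand).
Osgin1: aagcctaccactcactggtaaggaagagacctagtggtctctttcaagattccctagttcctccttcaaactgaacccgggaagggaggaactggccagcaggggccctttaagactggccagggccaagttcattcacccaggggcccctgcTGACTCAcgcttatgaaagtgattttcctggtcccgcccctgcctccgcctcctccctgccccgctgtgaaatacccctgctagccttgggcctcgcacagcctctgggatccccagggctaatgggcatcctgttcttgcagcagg
Cbr3: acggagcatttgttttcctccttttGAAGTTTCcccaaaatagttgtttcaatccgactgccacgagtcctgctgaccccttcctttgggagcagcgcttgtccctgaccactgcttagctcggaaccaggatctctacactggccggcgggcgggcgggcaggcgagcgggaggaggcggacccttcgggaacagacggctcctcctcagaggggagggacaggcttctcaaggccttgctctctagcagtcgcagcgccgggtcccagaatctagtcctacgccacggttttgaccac
Cbr1: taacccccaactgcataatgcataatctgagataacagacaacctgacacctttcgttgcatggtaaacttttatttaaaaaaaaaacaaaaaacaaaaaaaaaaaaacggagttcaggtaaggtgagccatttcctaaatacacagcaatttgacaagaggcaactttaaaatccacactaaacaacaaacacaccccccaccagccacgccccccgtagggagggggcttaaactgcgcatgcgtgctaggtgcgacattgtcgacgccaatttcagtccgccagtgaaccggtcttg
Ugdh: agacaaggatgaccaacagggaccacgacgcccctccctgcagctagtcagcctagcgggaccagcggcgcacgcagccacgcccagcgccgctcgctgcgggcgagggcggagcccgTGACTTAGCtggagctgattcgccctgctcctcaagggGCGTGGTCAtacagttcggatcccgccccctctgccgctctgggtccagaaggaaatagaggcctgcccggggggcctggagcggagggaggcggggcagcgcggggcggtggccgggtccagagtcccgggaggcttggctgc

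The levels of the quinone reductase genes came first. Nqo1 encodes the NAD(P)H quinone reductase and lies on chromosome 8 (107388225 to 107403206, minus strand, GRCm38, 6 exons). It measured 137 FPKM with vehicle, 205 FPKM with shikonin, 192 FPKM with TEPP-46, 74.1 FPKM in shControl and 150.3 FPKM in shPKM2. The control hairpin library was thus the lowest and the compound libraries the highest. Nqo2, on chromosome 13 (33964687 to 33988443, plus strand), encodes a related reductase that takes its electrons from dihydronicotinamide riboside rather than from NAD(P)H. Its levels were 11.9 FPKM with vehicle, 7.23 FPKM with shikonin, 12.4 FPKM with TEPP-46, 18.4 FPKM in shControl and 16.7 FPKM in shPKM2, so that the ends of the order were exchanged relative to Nqo1, with shikonin lowest and shControl highest. Nqo2 overlaps Serpinb6a on the other strand, and the use of strand in counting is not given in the sources used here, so reads of the pair cannot be told apart where their exons overlap. Ugdh overlaps Gm43289 and Gm43552, Ephx1 overlaps Gm36961 and Abcc1 overlaps Gm23116, each on the same strand. Any shared exon bases would carry the same limit.

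Carbonyl and aldo-keto reductase genes followed 3 different orders. Cbr1 and Cbr3 encode carbonyl reductases and lie in the same direction on chromosome 16 (93605853 to 93610505 and 93683215 to 93690990, plus strand), with 72709 bases between them. Cbr1 measured 22.3 FPKM with vehicle, 30.3 FPKM with shikonin, 20.1 FPKM with TEPP-46, 25.3 FPKM in shControl and 29.0 FPKM in shPKM2. Ranked from shikonin through shPKM2, shControl and vehicle to TEPP-46, each library overlapped the next within the 95% counting intervals. Cbr3 measured 30.01 FPKM with vehicle, 81.5 FPKM with shikonin, 29.6 FPKM with TEPP-46, 18.3 FPKM in shControl and 28.2 FPKM in shPKM2. Shikonin was far above the other 4 libraries and shControl below them. Akr1b8, an aldo-keto reductase gene on chromosome 6 (34354119 to 34368463, plus strand), was highest in the hairpin libraries, at 93.2 FPKM in shControl and 93.9 FPKM in shPKM2, against 35.8 FPKM with TEPP-46, 51.6 FPKM with vehicle and 72.1 FPKM with shikonin. Cbr1 with Cbr3 and Akr1b8 with Akr1b7 and Akr1b10 are similar copies, and how reads were split between them is uncertain.

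Aldh3a1 and Ephx1 were highest in shPKM2. Aldh3a1, on chromosome 11 (61207537 to 61218421, plus strand), encodes a dehydrogenase that oxidises medium-chain and aromatic aldehydes. It measured 23.9 FPKM with vehicle, 36.1 FPKM with shikonin, 28.6 FPKM with TEPP-46, 23.8 FPKM in shControl and 53.1 FPKM in shPKM2, and the vehicle and shControl libraries overlapped within counting error. Ephx1, on chromosome 1 (180976210 to 181020904, minus strand), encodes microsomal epoxide hydrolase, which opens epoxides to diols. Its levels were 45.9 FPKM with vehicle, 86.1 FPKM with shikonin, 44.0 FPKM with TEPP-46, 75.6 FPKM in shControl and 106 FPKM in shPKM2. Both hairpin libraries thus lay above vehicle for Ephx1, but only shPKM2 did so for Aldh3a1.

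Genes of conjugation, export and growth control completed the set. Ugdh, on chromosome 5 (65413221 to 65435949, minus strand), makes UDP-glucuronic acid, the donor for glucuronidation and for matrix polysaccharides. It was the most even member, at 141 FPKM with vehicle, 177 FPKM with shikonin, 178 FPKM with TEPP-46, 170.4 FPKM in shControl and 155 FPKM in shPKM2, a ratio of 1.263 between the highest and the lowest library. Abcc1 encodes MRP1, a pump for glutathione and glucuronide conjugates, and lies on chromosome 16 (14361558 to 14475737, plus strand). It measured 40.8 FPKM with vehicle, 68.1 FPKM with shikonin, 52.5 FPKM with TEPP-46, 24.1 FPKM in shControl and 32.1 FPKM in shPKM2, so that both compound libraries lay above vehicle and both hairpin libraries below it. Osgin1, on chromosome 8 (119434124 to 119446256, plus strand), encodes oxidative stress induced growth inhibitor 1, which is not a detoxification enzyme and is known as an NRF2 target. It measured 9.29 FPKM with vehicle, 121 FPKM with shikonin, 16.5 FPKM with TEPP-46, 8.68 FPKM in shControl and 12.8 FPKM in shPKM2, a ratio of 13.9 between the highest and the lowest library. For the other 8 members this ratio ran from 1.51 for Cbr1 to 4.45 for Cbr3.

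**Figure D1:**
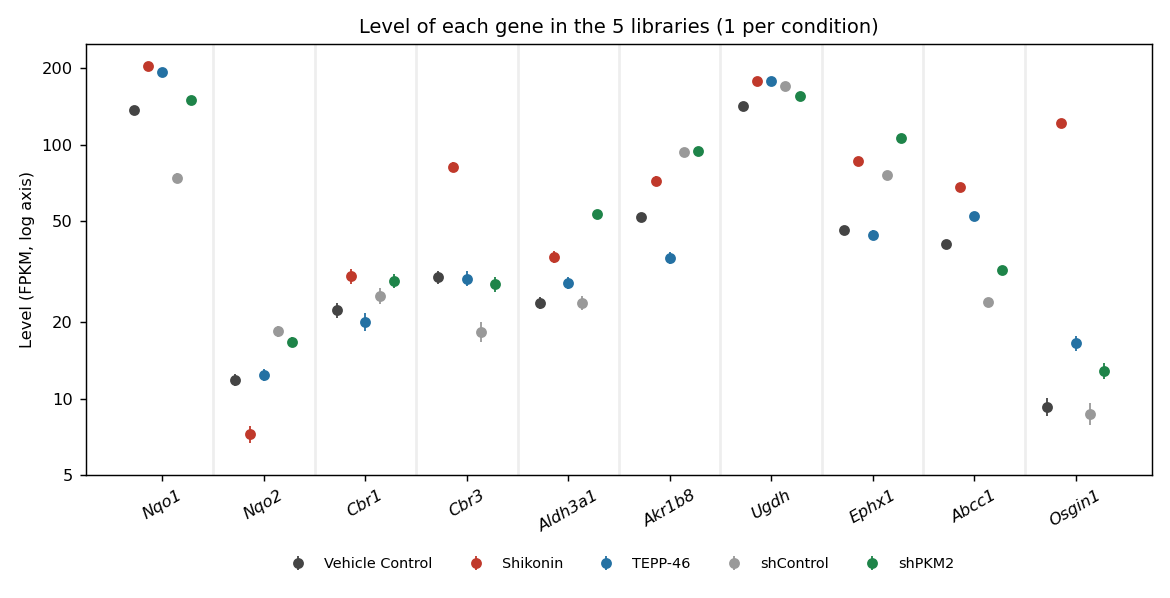
Level of each of the 10 genes (FPKM, log axis) in the 5 libraries, 1 point per library, with bars for the 95% counting interval, which are often smaller than the point. Shikonin stands apart for Osgin1 (121 FPKM) and Cbr3 (81.5 FPKM), shControl is lowest for Nqo1 (74.1 FPKM), and Ugdh is nearly level.

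Shikonin was compared with vehicle to see how the set stood after 8 h with a naphthoquinone. Differences are on the log2(FPKM + 1) scale. Of the 10 genes 9 were higher, against 47.6% of the 11128 measured genes, and the median difference was 0.58, against -0.03 over all measured genes. At least 2-fold higher were Osgin1 (3.57, counting SE 0.063) and Cbr3 (1.41, counting SE 0.054), 2 of 10 members against 4.01% of measured genes. None was at least 2-fold lower, against 3.5%. Osgin1 ranked 18th and Cbr3 170th from the top of the measured genes. The epoxide hydrolase gene Ephx1 followed at 0.89 and the exporter gene Abcc1 at 0.73. Nqo1 and Aldh3a1 both differed by 0.58, which put them at ranks 1357 and 1358, so the gene named for quinone reduction stood well behind Osgin1, Cbr3, Ephx1 and Abcc1. Akr1b8 (0.47), Cbr1 (0.43) and Ugdh (0.33) differed by less. Nqo2 was the only member lower than with vehicle (-0.64, counting SE 0.069). All 10 differences exceeded 1.96 counting SE, which says nothing of how far cultures vary.

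Cells given TEPP-46 were set against the same vehicle culture. Here 6 of the 10 genes were higher, against 49.5% of measured genes, and the median difference was 0.15, against 0.00 over all measured genes. No member was at least 2-fold higher or lower, against 1.23% and 0.359% of measured genes. Osgin1 was the highest at 0.77 (counting SE 0.079), followed by Nqo1 at 0.49 (counting SE 0.025), Abcc1 at 0.36, Ugdh at 0.34 and Aldh3a1 at 0.25. Akr1b8 was the lowest at -0.52 (counting SE 0.052), rank 338 from the bottom of the measured genes. Nqo2 (0.06), Cbr1 (-0.14), Cbr3 (-0.02) and Ephx1 (-0.06) lay within 1.96 counting SE of 0.

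Set side by side, the compound libraries were alike in some members and unlike in others. The doses are not in the labels, and both differences above share the vehicle library, so the direct difference of shikonin minus TEPP-46 is given. It was -0.01 for Ugdh (counting SE 0.020) and 0.09 for Nqo1 (counting SE 0.024), small beside 2.80 for Osgin1, 1.43 for Cbr3, 0.99 for Akr1b8 and 0.95 for Ephx1. Osgin1 and Cbr3 were at least 2-fold higher with shikonin, 2 of 10 members against 3.64% of measured genes, and none was at least 2-fold lower, against 3.64%. Cbr1 stood at 0.57, Abcc1 at 0.37, Aldh3a1 at 0.33 and Nqo2 at -0.70. Higher with shikonin were 8 of the 10, against 46.6% of measured genes, with a median difference of 0.47 against -0.04.

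**Figure D2:**
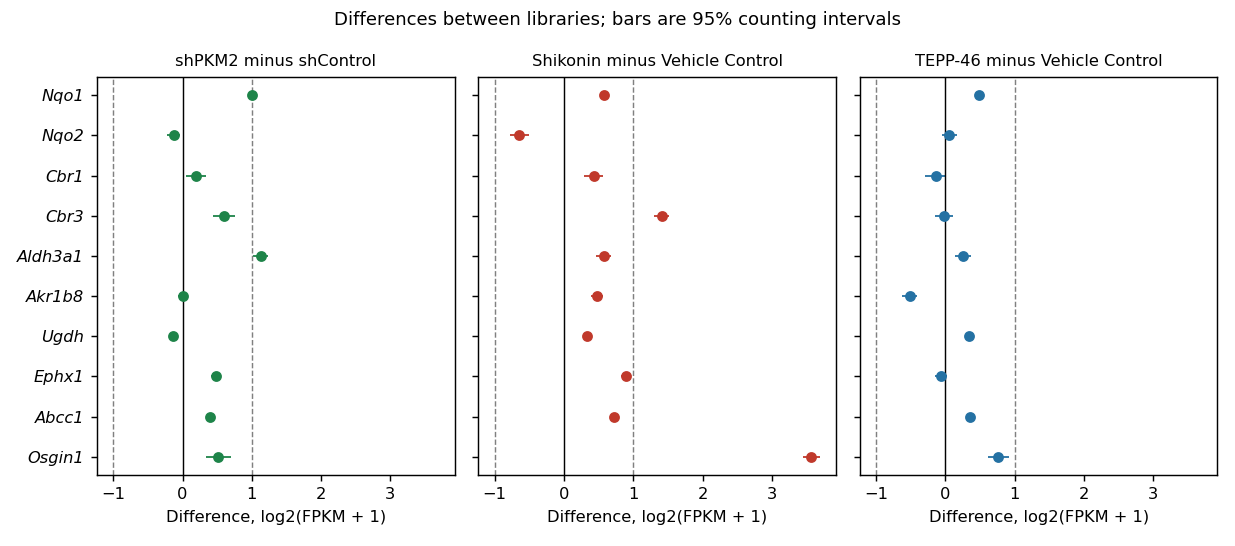
Difference in log2(FPKM + 1) of each gene for shPKM2 minus shControl, Shikonin minus Vehicle Control and TEPP-46 minus Vehicle Control, 1 library against another, with dashed lines at 2-fold. Bars are 1.96 counting SE of the plain log2 ratio, drawn around that difference. For Osgin1 with shikonin the interval of the plain log2 ratio was 3.58 to 3.83. Osgin1 (3.57) and Cbr3 (1.41) pass the line with shikonin, Aldh3a1 (1.13) and Nqo1 (1.01) pass it in shPKM2, and no gene passes it with TEPP-46.

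Cells given the PKM2 hairpin for 72 h were compared with those given the control hairpin. Aldh3a1 (1.13, counting SE 0.055) and Nqo1 (1.01, counting SE 0.034) were at least 2-fold higher, 2 of 10 members against 0.395% of measured genes, and none was at least 2-fold lower, against 0.225%. They ranked 38th and 44th from the top. Cbr3 stood at 0.60, Osgin1 at 0.52, Ephx1 at 0.48, Abcc1 at 0.40 and Cbr1 at 0.19. Akr1b8 (0.01) lay within 1.96 counting SE of 0, and Nqo2 (-0.13) and Ugdh (-0.14) were slightly lower. In all 8 of 10 were higher, against 50.2% of measured genes, with a median difference of 0.44 against 0.00.

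Much of that comparison rested on the shControl library. Between the control libraries Nqo1 was at -0.88 (counting SE 0.033) in shControl minus vehicle, rank 120 from the bottom of the measured genes, Abcc1 at -0.74 and Cbr3 at -0.68, while Akr1b8 stood at 0.84, Ephx1 at 0.71 and Nqo2 at 0.59. No member was 2-fold apart either way, against 3.48% of measured genes higher and 0.665% lower, and 5 of 10 were higher against 46.9%. Hairpin and time differ together between these libraries, so their parts cannot be told apart. With vehicle as the control of shPKM2, Nqo1 was higher by only 0.13, and Cbr3 (-0.09) and Abcc1 (-0.34) were lower. Aldh3a1 kept nearly the same value, 1.12, because shControl and vehicle held nearly the same level of it. Ephx1 stood at 1.19 and Akr1b8 at 0.85. Again 2 members were at least 2-fold higher with this control, against 4.1% of measured genes, but they were Aldh3a1 and Ephx1 rather than Aldh3a1 and Nqo1, and none was at least 2-fold lower, against 0.818%. Higher at any size were 8 of 10, against 45.5%.

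**Figure D3:**
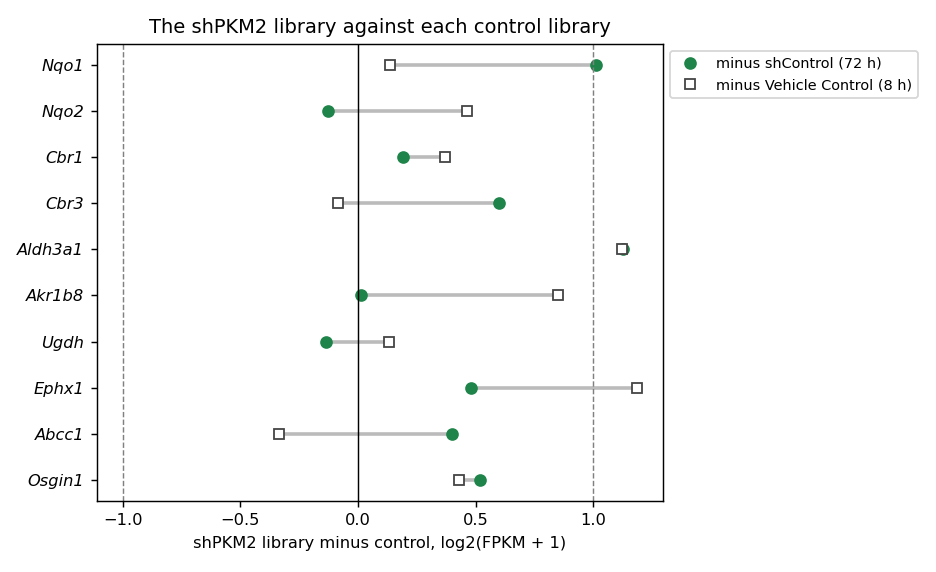
Difference in log2(FPKM + 1) of the shPKM2 library minus shControl (filled circles) and minus Vehicle Control (open squares) for each gene, joined by a line, with dashed lines at 2-fold. Aldh3a1 stays at 1.13 and 1.12, Nqo1 moves from 1.01 to 0.13, and Nqo2, Cbr3, Ugdh and Abcc1 change sign.

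For the compounds the choice of control also mattered. With shControl in place of vehicle, shikonin gave 4 members at least 2-fold higher (Osgin1 3.66, Cbr3 2.09, Abcc1 1.46 and Nqo1 1.45, against 4.49% of measured genes) and 1 at least 2-fold lower (Nqo2 -1.23, against 7.47%). TEPP-46 gave 2 at least 2-fold higher (Nqo1 1.36 and Abcc1 1.09, against 2.01%) and 1 at least 2-fold lower (Akr1b8 -1.36, against 4.39%). Osgin1 with shikonin stood at 3.57 against vehicle and 3.66 against shControl, and Aldh3a1 at 0.58 against either.

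Ratios within a library, which do not depend on the choice of control, showed the shift between related members. The level of Nqo1 was 11.5 times that of Nqo2 with vehicle, 28.3 times with shikonin, 15.5 times with TEPP-46, 4.04 times in shControl and 8.99 times in shPKM2. Shikonin thus had the widest gap between the reductase relatives and shControl the narrowest. The level of Cbr3 was 1.35 times that of Cbr1 with vehicle, 2.69 times with shikonin, 1.48 times with TEPP-46, 0.724 times in shControl and 0.973 times in shPKM2, so that the order of the neighbouring genes turned in the hairpin libraries. Such a ratio shows unequal change of a pair and does not say which gene moved.

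Few genes that flank the members were 2-fold apart. Counted were the 26 measured protein-coding genes within 2 places of a member, other than members. None was at least 2-fold higher with shikonin, against 4.01% of measured genes. At least 2-fold lower were Chaf1b beside Cbr3 (-1.24) and Bphl beside Nqo2 (-1.07), 2 of 26 against 3.5%. Smaller differences were shared in part. Akr1b10, next to Akr1b8, stood at 0.46 with shikonin and -0.28 with TEPP-46, where Akr1b8 stood at 0.47 and -0.52. Akr1b3, on the other side of Akr1b8, stood at 0.52 and 0.53. Morc3, next to Cbr3, stood at 0.09, and Mlycd, next to Osgin1, at -0.62. In shPKM2 minus shControl none of the 26 was 2-fold apart, against 0.395% of measured genes higher and 0.225% lower. Their range was -0.67 to 0.19. With TEPP-46 Snai2, beside Abcc1, was the only one at least 2-fold higher (1.69), against 1.23%. None was 2-fold lower with TEPP-46, against 0.359%.

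Relatives of the members in the same enzyme families were counted next. Aldo-keto reductase genes other than Akr1b8 had a median of 0.37 with shikonin, 0.04 with TEPP-46 and -0.04 in shPKM2, with 6 of 16 measured and none at least 2-fold apart. Over all measured genes 4.01% were at least 2-fold higher with shikonin, 1.23% with TEPP-46 and 0.395% in shPKM2 minus shControl. At least 2-fold lower were 3.5%, 0.359% and 0.225%, so a list of 6 with none is close to those shares. The polyol pathway gene Akr1b3 stood at 0.52 with shikonin and at -0.67 in shPKM2. Aldehyde dehydrogenase genes other than Aldh3a1 (12 of 19 measured) had medians of 0.00, 0.15 and 0.04 for the same comparisons. Only Aldh1l2, a mitochondrial folate enzyme gene, was at least 2-fold apart, by 1.80 with TEPP-46, 1 of 12 against 1.23% of measured genes. Aldh3a2, the neighbour of Aldh3a1, stood at 0.48 with shikonin, 0.51 with TEPP-46 and -0.04 in shPKM2.

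Among other carbonyl and quinone reductases, 19 of 20 were measured and the shikonin median was -0.13. With shikonin 7 were higher and 12 lower, against 47.6% of measured genes higher. Ptgr1, which reduces the double bond of unsaturated aldehydes and ketones, was higher by 1.66 with shikonin and by 0.87 in shPKM2 but by 0.07 with TEPP-46. Txnrd1, the thioredoxin reductase gene, was higher by 1.09 with shikonin. Cyb5r1, a cytochrome b5 reductase gene, was higher by 1.85 with TEPP-46 and by 0.76 with shikonin. Por, whose product passes single electrons to cytochromes and can reduce quinones to radicals, stood at 0.75 with shikonin and -0.28 with TEPP-46. Aifm2, which encodes the ubiquinone reductase FSP1, stood at -0.04 and -0.10.

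Conjugation and export genes were few in these cells. Of 18 genes of glucuronidation and sulfation 4 were measured, and none was 2-fold apart in shPKM2 or with either compound. The glucuronosyltransferase gene Ugt1a6a measured 0.83 FPKM with vehicle, 1.55 FPKM with shikonin, 2.11 FPKM with TEPP-46, 1.49 FPKM in shControl and 2.29 FPKM in shPKM2. Ugdh, which supplies the donor of that reaction, was thus far more abundant per length than the measured transferase. Of the 12 other drug exporter genes 6 were measured. With shikonin Abcc4, another conjugate pump gene, was higher by 1.14 and Abcg2 lower by an almost 2-fold -0.99. Of other epoxide hydrolase genes, Ephx2, Ephx3 and Ephx4 had means below 1 FPKM. Lta4h, on the same list, had a mean of 55.6 FPKM and stood at -0.29 with shikonin. Mest, a gene of the same hydrolase fold that is not an established epoxide hydrolase, was higher by 1.79 with shikonin.

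The lists of regulator targets were read beside the set because members belong to both. Of 13 NRF2 reference targets outside the set, all 13 were higher with shikonin, against 47.6% of measured genes, and 8 were at least 2-fold higher, against 4.01% (median 1.09). With TEPP-46 11 of 13 were higher, against 49.5%, and 3 at least 2-fold, against 1.23% (median 0.32). In shPKM2 minus shControl 12 of 13 were higher, against 50.2%, and 2 at least 2-fold, against 0.395% (median 0.57). The highest with shikonin were the haem oxygenase gene Hmox1 (4.56), the cystine carrier gene Slc7a11 (2.58), the sulfiredoxin gene Srxn1 (2.48) and Gclm (1.59). With TEPP-46 Hmox1 (2.30), Slc7a11 (1.81) and Srxn1 (1.03) were at least 2-fold higher, and in shPKM2 Hmox1 (1.54) and Gsta4 (1.35). The members' medians of 0.58, 0.15 and 0.44 were smaller in each comparison. The NRF2 targets also lay low in shControl minus vehicle, with 9 of 13 lower and a median of -0.33. Higher there were 4 of 13, against 46.9% of measured genes. With vehicle as the control of shPKM2, 10 of 13 were higher, against 45.5%. Only 1 of 13 was then at least 2-fold higher, against 4.1%, and the median was 0.27. Of 8 measured AhR targets, which include Nqo1 and Aldh3a1, 6 were higher with shikonin, against 47.6% (median 0.35). Only Cyp1b1 was at least 2-fold lower, 1 of 8 against 3.5% of measured genes, at 9.95 FPKM against 37.7 FPKM with vehicle (-1.82). It was at 9.80 FPKM in shControl, so that difference depended on the choice of control. Cyp1a1 stood at 0.23 and Tiparp at 0.23. With TEPP-46 7 of 8 were higher, against 49.5% (median 0.37). None was 2-fold apart with TEPP-46, against 1.23% higher and 0.359% lower. In shPKM2 minus shControl 7 of 8 were higher, against 50.2% (median 0.35). At least 2-fold higher there were the members Aldh3a1 and Nqo1, 2 of 8 against 0.395%. Cyp1a1 stood at 0.89 (6.66 FPKM against 3.12 FPKM) and Cyp1b1 at -0.47 in that comparison. Ahr itself stood between 2.72 FPKM with TEPP-46 and 4.83 FPKM in shPKM2.

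**Figure D4:**
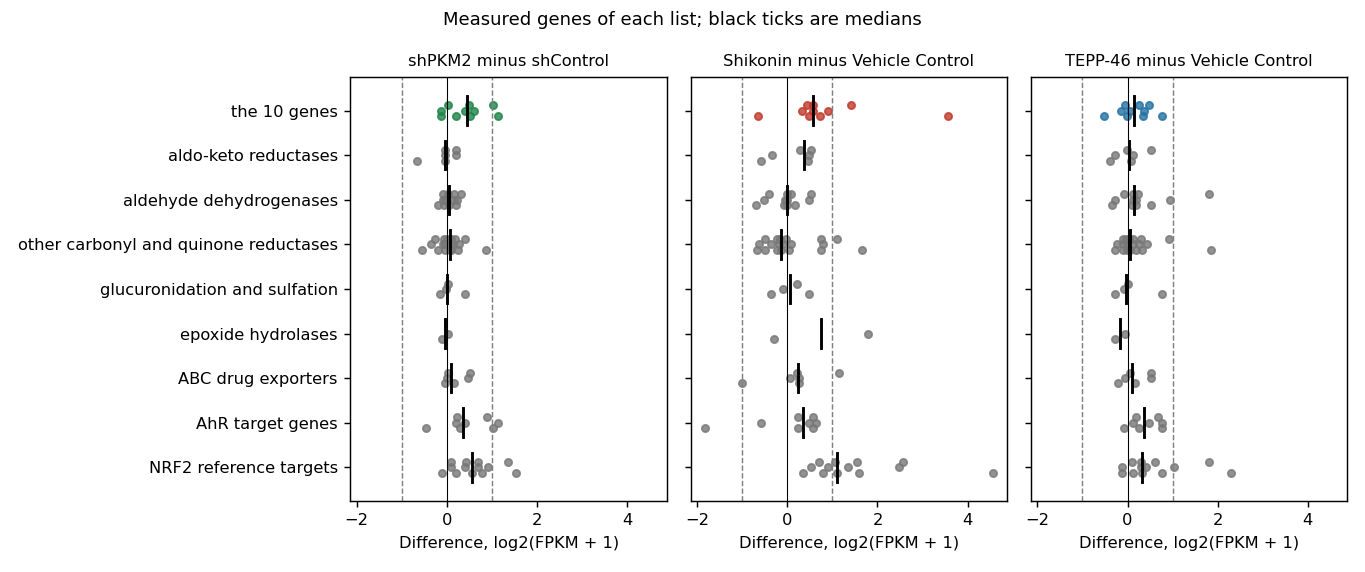
Difference in log2(FPKM + 1) of every measured gene of each list, 1 point per gene, for the same 3 comparisons, with black ticks for medians and dashed lines at 2-fold. With shikonin the NRF2 reference targets have the median of 1.09 and the 10 genes 0.58, while aldehyde dehydrogenases centre on 0.00.

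The members did not follow a single profile over the libraries. Likeness was measured as the root mean square distance between log2(FPKM + 1) values centred over the 5 libraries, a description that rests on 5 points. The values were not scaled for range, so members that vary little reach small distances more easily. The closest pair of members was Nqo1 and Abcc1 (0.23), followed by Akr1b8 and Ephx1 (0.24) and Cbr1 and Ugdh (0.24), and the most distant was Nqo2 and Osgin1 (1.74). Among 8337 genes of at least 300 nt whose mean reached 5 FPKM, Gsta4 (0.16), Gclc (0.19) and Slc48a1 (0.20) were closest to Nqo1. These encode a glutathione transferase that acts on 4-hydroxynonenal, the catalytic subunit of glutathione synthesis and a haem transporter. Closest to Cbr3 were Ptgr1 (0.12), Etv3 (0.14) and Pgd (0.15), and closest to Aldh3a1 were Gstm1 (0.18) and Plekhm1 (0.20). Osgin1, the member with the widest range, had larger distances to its nearest genes, Mocos (0.31), Fam219a (0.37) and the peroxiredoxin gene Prdx6 (0.46). Mocos also stood out with shikonin, at 22.5 FPKM against 1.83 FPKM with vehicle. Akr1b8 was close to Upp1 (0.08) and Parp3 (0.11). Ephx1 was closest to Atp6v1a (0.09), Man1a (0.10) and Hsd3b7 (0.11), and Abcc1 to Zbtb39 (0.07), Rbm20 (0.08) and Atmin (0.10). The smallest distances were those of Slc25a11 (0.03), Dcakd (0.03) and Pde6d (0.05) for Nqo2, Plxnd1 (0.03), Eme2 (0.03) and BC005624 (0.04) for Cbr1, and Tada3 (0.03), Ifnar2 (0.03) and Apip (0.04) for Ugdh.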

How the data were processed

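RNA was measured in 5 libraries, 1 per condition. Per the submitters' processing notes, Trim Galore 0.6.0, cutadapt, FastQC and DESeq2 1.26.0 were among the tools and GRCm38 was the build named. Neither an aligner nor a counting program nor an annotation is given in the sources used here. Values deposited by the authors are FPKM, 1 column per library. Columns were assigned to conditions by name. That of shControl carries a further number with no explanation in the labels. FPKM values are not counts, so no count model was used.

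Differences are of log2(FPKM + 1), where the added 1 shrinks those of low genes. Genes entered when their mean reached 1 FPKM, and were called by size alone, at 2-fold on this scale, with no test. A gene just short of the limit can therefore be past 2-fold in plain FPKM. Examples are Abcg2 (shikonin against vehicle), Cyp1a1 (shPKM2 against shControl) and Akr1b8 (shikonin against TEPP-46). Depth was estimated from the steps between low values. In 2066 of 2876 low genes (71.8%) every value was a multiple of 1 common step (tolerance 0.02 of a read), and 475 genes with a single GENCODE M21 transcript gave a median of 30.9 times 1000000 reads for vehicle (quartiles 28.1 and 32.4). These depths are relative to the authors' measure of library size. Reads of a member were estimated with the length of its principal GENCODE M21 transcript, and the counting SE refers to the plain log2 ratio, with nothing added. Low genes were those below 0.3 FPKM.

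The members and lists were chosen with earlier results of these data known. Named were all members, list genes at least 2-fold apart (at most 4 each way) and the 3 genes closest to a member in profile, of which 2 are not reported here. Neighbouring genes and other list genes given for contrast were chosen after their values were seen. Depth and differences were tested on simulated data. Alternatives were pseudocounts of 0.1 and 5, no filter, a minimum mean of 5 FPKM, rescaling by sum or by median ratio, and the other control library. Python 3.11.15, numpy 2.4.6, pandas 2.3.3, scipy 1.17.1 and matplotlib 3.10.9 were used.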

Additional observations from a re-analysis of the deposited data

How the results depend on the processing

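Counts of members at least 2-fold apart stayed within 1.5 times their value, and medians of the set within the 95% counting error of a typical member, under a pseudocount of 0.1, no filter, a minimum mean of 5 FPKM, rescaling to a sum of 1000000 and median-of-ratios factors, in all 5 comparisons. The 1 count that moved among these was that of members at least 2-fold higher with shikonin than with TEPP-46, from 2 to 3 with a pseudocount of 0.1 (Akr1b8 at 1.01). Rescaling moved the median of all measured genes by at most 0.07. A pseudocount of 5 left 1 member at least 2-fold higher in shPKM2 minus shControl instead of 2. The other control library changed more: for shikonin the median was 0.42, with 4 members at least 2-fold higher and 1 lower, and for TEPP-46 2 were higher and 1 lower, instead of 0. Among single members 11 of 50 differences moved beyond counting error with rescaling to a sum of 1000000, by at most 0.09. With a pseudocount of 5, 10 of 50 moved, by at most 0.43. None changed sign under either setting. With the other control library 24 of 30 moved beyond counting error and 7 changed sign, by construction since another library is subtracted. The 7 were Nqo2 (0.46), Cbr3 (-0.09), Ugdh (0.13) and Abcc1 (-0.34) in shPKM2, Akr1b8 (-0.36) with shikonin, and Nqo2 (-0.53) and Cbr3 (0.67) with TEPP-46. No paired analysis was possible because each condition had 1 library, and for the same reason no library could be left out. Depth limits the lower members most: the counting SE of Cbr3 in shPKM2 minus shControl was 0.082 and that of Osgin1 0.091.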

Other observations

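Enzymes that remove superoxide and peroxide, the by-products of quinone cycling, were read as a separate list of 6 measured genes. Sod1, the cytosolic superoxide dismutase gene, stood at 1056 FPKM with shikonin against 521 FPKM with vehicle, a difference of 1.02, and the catalase gene Cat at 82.5 FPKM against 35.8 FPKM, a difference of 1.18. The mitochondrial Sod2 stood at 0.44, and Gpx4, which reduces lipid peroxides, at 0.03, while Sod3, the secreted dismutase gene, stood at -0.34 and Gpx1 at -0.26. Thus 4 of the 6 were higher and 2 lower with shikonin, against 47.6% of measured genes higher. At least 2-fold higher were 2 of the 6, against 4.01%. With TEPP-46 also 4 were higher and 2 lower, against 49.5% higher. None was 2-fold apart with TEPP-46, against 1.23% higher and 0.359% lower. Cat stood at 0.49, Sod1 at 0.03, Gpx1 at -0.39 and Sod3 at -0.26. In shPKM2 minus shControl 3 were higher and 3 lower, against 50.2% higher, with Cat at 0.66 and Sod3 at 0.39. Cat was itself lower in shControl than in vehicle (-0.49) and Sod3 higher (1.04). Osgin2, the relative of Osgin1, stood at 0.24 with shikonin, 0.56 with TEPP-46 and 0.14 in shPKM2 minus shControl. These values come from 1 library per condition.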
